A study of Mus musculus with 6 samples.

Results

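Klf2, Klf3, Klf4, Klf6, Klf10, Klf13, Sp1, Sp2, Sp3 and Sp4 encode transcription factors of the KLF and SP family, and they were taken by symbol from the mouse annotation, leaving aside the erythroid factor Klf1, which gave 10 of the 48709 genes in the count table. Poly(A) RNA was sequenced from the G1E-ER4 line in 6 libraries, of which 3 had received a peptide with the aggregation-prone region of the chromatin remodeler CHD4 fused to Tat (CHD4-APR) and 3 a run of alanines fused to Tat (CTRL). Both groups shared this one line, in which the endogenous Gata1 gene is disrupted and an estrogen receptor fusion of GATA-1 becomes active, and erythroid maturation starts, once tamoxifen is given. Each peptide was present at 10 μM for 2 h before tamoxifen was added for another 28 h, and the tamoxifen concentration is 100 nM in the growth protocol but 100 μM in the design text. Nothing in the labels says that the 3 libraries of a group came from separate cultures, so p-values measure the spread between these libraries only. Libraries without peptide or without tamoxifen were not analysed here.

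KLF and SP proteins share a block of C2H2 zinc fingers at their carboxy-terminal end that recognizes GC boxes and the related CACCC boxes in promoters and enhancers, and they differ mainly in the amino-terminal parts that recruit coactivators or corepressors. Red cell precursors are known for Klf1, the erythroid activator of the beta-globin gene, and for Klf3, which binds similar CACCC sites and recruits the corepressor CtBP. Sp1 and Sp3 are broadly expressed and compete for GC boxes, whereas several KLF genes, among them Klf2, Klf4, Klf6 and Klf10, are known as rapidly induced genes.

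Of the 10 genes, 8 had enough counts to be tested, and 7 of the 8 rose with the CHD4-APR peptide at an adjusted p under 0.05 by edgeR's quasi-likelihood test with Benjamini-Hochberg adjustment over 12722 genes (FDR). In bulk libraries, more RNA per cell and more cells of a type cannot be told apart. Over all genes tested, 20.4% were called higher and 17.8% were called lower. Sp4, Sp3, Klf10 and Klf6 rose by more than 1.5-fold, which 3.48% of all genes did and 0.747% did in the other direction, and Klf3, Sp1 and Klf13 rose by less. Sp2 was the only tested member without a call, 0 of the members fell, and Klf2 and Klf4 had no counts in any library. No member fell at an unadjusted p under 0.05 either, and DESeq2 and limma-voom likewise called 7 higher and 0 lower. Over all genes DESeq2 called 2514 higher and 2122 lower, and limma-voom 2583 and 2246. In 6 of the 8 tested members every CHD4-APR library lay above every CTRL library, a separation that 25.0% of all tested genes showed in this direction. CTRL replicate 1 differed more from the other CTRL libraries (chi-square per degree of freedom over genes 15.46 and 9.40) than these did from each other (4.98), and it was the lowest CTRL library for 7 of the 8 tested members, all but Klf10. Without it 6 members were called higher, with log2 fold changes of 0.75 for Sp4, 0.70 for Sp3, 0.61 for Klf6, 0.95 for Klf10, 0.35 for Klf3 and 0.24 for Sp1, and Klf13 lost its call. Over all genes, leaving it out gave 2317 higher and 1872 lower. Changes over all genes went with the GC content and length of the transcripts, and the log2 fold change with that trend removed from each library (the corrected value) is given with each tested member.

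The promoters of the SP genes and of Klf3 and Klf6 are shown to compare, for GC boxes, the letters that these factors themselves recognize, genes whose RNA rose with Sp2, whose RNA had no call. RefSeq start sites on GRCm38.p6 were at hand for 9 of the 10 genes, in 12 windows of the 250 bases before a start site, and Klf10 had none. The sequences run 5′ to 3′ toward the start site, and capitals mark GC boxes (GGGCGG on either strand) and CACCC boxes (CCACNCCC on either strand). The windows shown lie at chr12:118301441-118301690 on the minus strand for Sp4, chr2:72980447-72980696 on the minus strand for Sp3, chr15:102406066-102406315 on the plus strand for Sp1, chr11:96982960-96983209 on the minus strand for Sp2, chr5:64803271-64803520 on the plus strand for Klf3 and chr13:5861239-5861488 on the plus strand for Klf6.
Sp4: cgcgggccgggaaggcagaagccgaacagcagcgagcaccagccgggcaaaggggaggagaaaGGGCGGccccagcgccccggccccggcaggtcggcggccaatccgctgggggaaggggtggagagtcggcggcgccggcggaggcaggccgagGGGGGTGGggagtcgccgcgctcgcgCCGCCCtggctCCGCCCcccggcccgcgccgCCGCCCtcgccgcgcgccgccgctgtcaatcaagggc
Sp3: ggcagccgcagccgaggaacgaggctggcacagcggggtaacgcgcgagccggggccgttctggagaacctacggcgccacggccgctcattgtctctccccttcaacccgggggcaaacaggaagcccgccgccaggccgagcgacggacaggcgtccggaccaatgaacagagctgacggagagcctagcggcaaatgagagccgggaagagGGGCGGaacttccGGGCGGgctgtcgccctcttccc
Sp1: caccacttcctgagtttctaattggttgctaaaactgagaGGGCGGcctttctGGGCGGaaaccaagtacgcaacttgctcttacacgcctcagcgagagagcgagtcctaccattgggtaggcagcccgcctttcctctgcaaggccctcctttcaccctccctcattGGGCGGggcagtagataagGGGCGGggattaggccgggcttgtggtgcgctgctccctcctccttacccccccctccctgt
Sp2: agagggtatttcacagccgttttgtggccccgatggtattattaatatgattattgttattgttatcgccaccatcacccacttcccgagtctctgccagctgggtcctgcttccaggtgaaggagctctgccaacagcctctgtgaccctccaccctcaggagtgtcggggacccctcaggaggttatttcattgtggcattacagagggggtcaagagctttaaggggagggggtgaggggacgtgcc
Klf3: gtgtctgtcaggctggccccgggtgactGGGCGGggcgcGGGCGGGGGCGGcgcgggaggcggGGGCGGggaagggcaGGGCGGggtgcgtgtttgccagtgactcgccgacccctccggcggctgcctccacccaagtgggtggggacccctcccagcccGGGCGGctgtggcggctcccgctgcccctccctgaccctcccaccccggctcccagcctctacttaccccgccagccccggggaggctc
Klf6: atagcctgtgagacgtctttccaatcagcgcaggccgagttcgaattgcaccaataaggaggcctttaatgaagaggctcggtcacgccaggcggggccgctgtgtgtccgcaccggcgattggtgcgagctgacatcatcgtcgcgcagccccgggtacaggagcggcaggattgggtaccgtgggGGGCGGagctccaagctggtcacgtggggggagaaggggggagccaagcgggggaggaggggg

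A GC box was present in 10 of the 12 windows of the members, against 32.7% of 32851 promoter windows of all genes. Sp4 and Sp1 held 4 GC boxes each, Klf6 held 1, Klf13 held 3 and Klf3 held 6. Of the other family genes with a call, Klf11 and Klf9, which rose, held 4 and 0, and Klf1, which fell, held 0. Sp3 held 2 in the window shown and 5 at its other start site, while the Sp2 window shown held 0 and another of its 3 start sites had 1. CACCC boxes were found in 2 windows, those of Klf13 and Sp4, against 15.9% of all windows, and where one overlapped a GC box both were counted. CCAAT boxes (CCAAT on either strand) stood in 6 of the 12 windows, against 33.8% of all. The Klf6 window held 4 of them and the second start site of Sp2 held 6. The motif of GATA factors (AGATAA on either strand) was in 2 windows, of Sp1 and of a downstream start of Sp2, against 9.99% of all. A TATA box (TATAAA), an AP-1 motif (TGANTCA) and a CArG box were in 0 of the 12 windows, against 12.4%, 6.75% and 1.47% of all windows. The windows of the members were rich in G and C, between 53.2% and 80.0%, against a median of 52.4%. Klf2 and Klf4, which had no counts, held 2 and 4 GC boxes. These matches describe letters in short windows and were not tested as binding sites.

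The log2 fold changes of the SP genes spread from -0.04 to 0.86, with Sp2 at one end and Sp4 at the other. Sp4, on chromosome 12 from 118234933 to 118301440 (GRCm38, GENCODE M21), encodes an SP factor best known from neurons and had the lowest level per kb of the 4. With the CTRL peptide it had 9.77, 12.6 and 12.5 normalized CPM (counts scaled to the TMM-adjusted size of the library), and with the CHD4-APR peptide 19.3, 24.3 and 19.9. Every CHD4-APR library was above every CTRL library, and the means were 11.6 ± 1.60 (SD, n = 3) and 21.2 ± 2.74 (SD, n = 3). It rose 1.82-fold, the largest rise of the members in the uncorrected fit of all libraries, or by 0.86 ± 0.103 (standard error) on the log2 scale, at an FDR of 1.11e-05 by edgeR. The corrected value was 0.59 (FDR 1.43e-04 by edgeR), below the 0.70 of Klf10.

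Sp3, on chromosome 2 from 72936427 to 72980446, encodes a factor that activates or represses from the same GC boxes as SP1, depending on its isoform and modification. Its levels were 35.9, 45.4 and 43.2 normalized CPM with the CTRL peptide and 70.6, 74.9 and 70.5 with the CHD4-APR peptide. The CHD4-APR libraries lay close together and well above the highest CTRL library, and CTRL replicate 1 was the lowest of all. It rose by 0.79 ± 0.0697 on the log2 scale (standard error), at an FDR of 1.01e-06 by edgeR, and the corrected value was 0.55 (FDR 4.98e-06). An antisense gene, Sp3os, shares 109 bases or 2.21% of the exonic length of Sp3. Sp3os itself was at 3.32 ± 0.236 normalized CPM with the CTRL and 3.25 ± 0.223 with the CHD4-APR peptide (SD, n = 3 each), with no call (FDR 0.880 by edgeR).

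Sp1, on chromosome 15 from 102406143 to 102436404, is the founding member of the family and an activator of many promoters without a TATA box. Its 3 CTRL libraries had 82.9, 94.9 and 90.8 normalized CPM, and the CHD4-APR libraries 105, 112 and 111. The groups did not overlap, and the 1.22-fold rise had a log2 value of 0.29 ± 0.0527 (standard error) and an FDR of 4.71e-04 by edgeR. This call ended in the corrected fit, at 0.03 (FDR 0.671 by edgeR). Correcting for GC content alone, an alternative chosen after seeing the data, gave 0.12, which still passed (FDR 0.0314 by edgeR), and correcting for length alone gave 0.12, which did not (FDR 0.0613).

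Sp2, on chromosome 11 from 96953341 to 96982959, encodes a more distant member with its own DNA-binding preferences. It had 67.6, 68.3 and 70.0 normalized CPM with the CTRL peptide and 65.3, 66.2 and 69.2 with the CHD4-APR peptide. The groups overlapped, and the log2 fold change was -0.04, with a 95% interval from -0.14 to 0.06 (FDR 0.582 by edgeR). The corrected value turned to 0.073, again without a call (FDR 0.238 by edgeR). Without the correction the upper end of the interval is below the log2 fold changes of Sp1, Sp3 and Sp4, whereas the corrected value of Sp2 is above that of Sp1. The antisense gene D030028A08Rik shares 126 bases or 3.69% of the exonic length of Sp2 and had 61.9 ± 2.97 normalized CPM with the CTRL and 58.3 ± 3.47 with the CHD4-APR peptide (SD, n = 3 each), with no call (FDR 0.234 by edgeR). The library kit does not mark strand, so reads in the shared bases cannot be told apart.

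**Figure D1:**
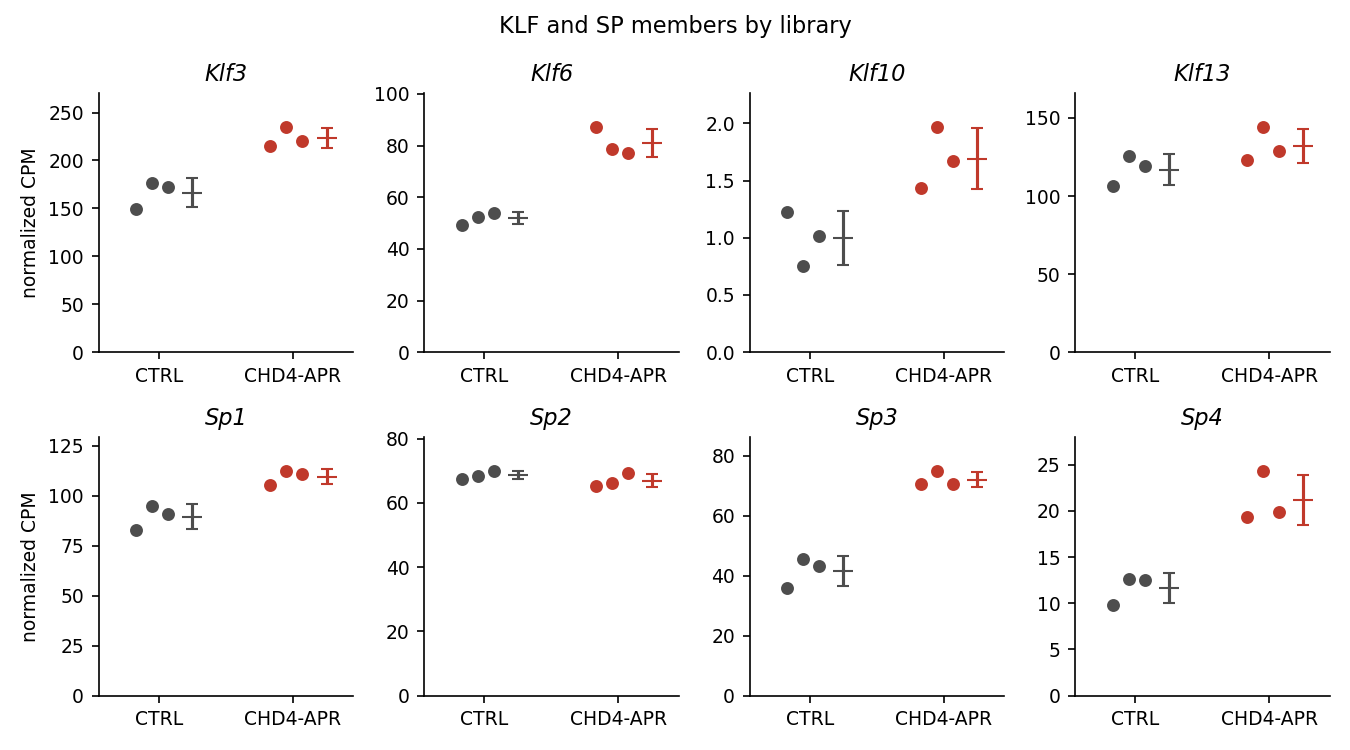
Normalized CPM of the 8 tested members in each library, with CTRL libraries in grey and CHD4-APR libraries in red. Points are single libraries, the bar beside them is the mean with its SD (n = 3), and each axis starts at 0. The groups stand apart in 6 panels and overlap in those of Klf13 and Sp2.

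Changes of unequal size shifted the make-up of the SP transcripts. Per kb of exonic length, Sp3 made up 18.8% to 21.5% of the sum of Sp1, Sp2, Sp3 and Sp4 in the CTRL libraries and 27.8% to 29.0% in the CHD4-APR libraries. The share of Sp2 went from between 46.7% and 51.0% to between 37.0% and 39.5%, and that of Sp4 from between 4.37% and 5.11% to between 6.70% and 8.04%. The share of Sp1 was 25.9% to 26.8% with the CTRL peptide and 25.7% to 26.0% with the CHD4-APR peptide. These shares use uncorrected levels, and with the corrected log2 fold changes, 0.03 for Sp1, 0.073 for Sp2, 0.55 for Sp3 and 0.59 for Sp4, the share of Sp2 would fall less and that of Sp1 would fall too. The ratio of Sp3 to Sp1 per kb, the pair that competes for GC boxes, was 0.725, 0.801 and 0.797 with the CTRL peptide. With the CHD4-APR peptide it was 1.12, 1.12 and 1.07. In normalized CPM not divided by length, Sp3 stayed below Sp1 in every library. The means were 41.5 and 89.6 with CTRL and 72.0 and 109 with CHD4-APR. So the ratio rose, whereas which gene was higher depended on the exonic lengths, 4933 bases for Sp3 and 8262 for Sp1. In a two-sided exact permutation test this ratio had p = 0.1, the smallest that 3 libraries against 3 allow, also after adjustment over the 2 ratios computed. These ratios were chosen after the values were seen, and they compare RNA, not protein.

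Among the KLF genes, Klf6 had the lowest adjusted p. It lies on chromosome 13 from 5861482 to 5870394 and encodes a widely expressed activator known as a growth suppressor. Its CTRL libraries had 49.2, 52.5 and 53.7 normalized CPM, and its CHD4-APR libraries 87.1, 78.7 and 77.3. The lowest CHD4-APR library was far above the highest CTRL library, with means of 51.8 ± 2.35 (SD, n = 3) and 81.0 ± 5.31 (SD, n = 3). On the log2 scale it rose by 0.65 ± 0.0558 (standard error), at an FDR of 8.87e-07 by edgeR, and the corrected value was 0.48 (FDR 1.05e-05).

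Klf3, on chromosome 5 from 64803388 to 64832901, is transcribed under the control of KLF1 in red cell precursors and encodes a CtBP-recruiting repressor of the family. Its levels were 149, 177 and 173 normalized CPM with the CTRL peptide and 215, 235 and 221 with the CHD4-APR peptide. Again no library of one group reached the other, and the 1.34-fold rise had a log2 value of 0.43 ± 0.0578 (standard error) and an FDR of 3.59e-05 by edgeR. The corrected value was lower, 0.17, and still passed (FDR 0.00722 by edgeR). Klf3 has the longest exonic sequence of the members, 11243 bases, and correcting for length alone gave a log2 fold change of 0.19. Gm20033, on the opposite strand, shares 3.59% of that length and had 3.97 ± 0.352 and 3.24 ± 0.231 normalized CPM (SD, n = 3 each), with no call (FDR 0.0853 by edgeR).

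Klf13, on chromosome 7 from 63886351 to 63938915, encodes a factor of the SIN3-recruiting group that also binds the CACCC boxes of globin promoters. Its CTRL libraries had 106, 125 and 119 normalized CPM and its CHD4-APR libraries 123, 144 and 129, so that the lowest CHD4-APR library was below the highest CTRL library. Its log2 fold change of 0.17 (standard error 0.0636) passed narrowly (FDR 0.0414 by edgeR), and the corrected value was 0.18 (FDR 0.0484). The call ended with upper quartile scaling (log2 fold change 0.16, FDR 0.0578), with length alone corrected for (0.02, FDR 0.786), and in edgeR without CTRL replicate 1 (0.11), CTRL replicate 3 (0.19) or CHD4-APR replicate 2 (0.11).

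Klf10, on chromosome 15 from 38291463 to 38300706, encodes a repressor first found as a gene induced by TGF-beta and also recruits SIN3. It was scarce, with 52, 37 and 42 counts under the CTRL peptide and 64, 84 and 79 under the CHD4-APR peptide, or 0.997 ± 0.240 and 1.69 ± 0.267 normalized CPM (SD, n = 3 each). The groups did not overlap, although the gap between them was small. It rose by 0.77 ± 0.224 on the log2 scale (standard error), at an FDR of 0.0122 by edgeR, with a 95% interval from 0.30 to 1.24 that is the widest of the members. The corrected value was 0.70 (FDR 0.0288). The call ended without CTRL replicate 2 (log2 fold change 0.59, FDR 0.0622) and without CHD4-APR replicate 2 (0.65, FDR 0.0656).

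Klf2 and Klf4, a pair induced together by the kinase ERK5 and MEF2 factors in other cells, were at 0 counts in all 6 libraries. Klf2 lies on chromosome 8 from 72319033 to 72321656 and Klf4 on chromosome 4 from 55527143 to 55532466. A count of 0 allows up to 3 counts, or between 0.0603 and 0.0720 CPM depending on the library, a limit that covers counting error only. No fold change can be given for them.

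**Figure D2:**
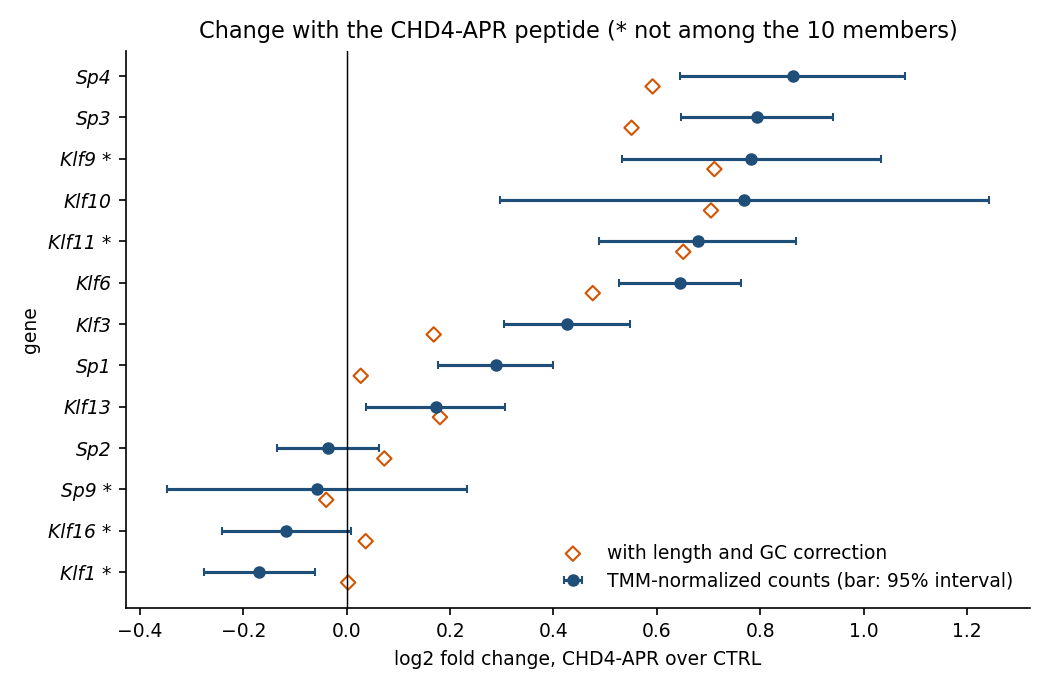
Log2 fold change of the 13 tested KLF and SP genes, CHD4-APR over CTRL, by edgeR. Filled points with bars are TMM-normalized counts with their 95% interval and open diamonds are values after the length and GC correction. The correction lowers Sp4, Sp3, Klf6, Klf3 and Sp1, leaves Klf13, Klf10, Klf9 and Klf11 nearly in place, and moves Sp2, Klf16 and Klf1 to or just above 0.

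Of the 16 other KLF and SP genes, 5 could be tested, of which 2 rose and 1 fell, beside 20.4% and 17.8% of all genes. Klf9, a SIN3-recruiting repressor induced by glucocorticoid and thyroid hormone, rose from 12.1 ± 2.69 to 20.9 ± 1.68 normalized CPM (SD, n = 3 each), with a log2 fold change of 0.78 (FDR 9.12e-05 by edgeR). Klf11, the closest relative of Klf10, rose from 13.6 ± 1.87 to 21.8 ± 1.53 normalized CPM (SD, n = 3 each), with a log2 fold change of 0.68 (FDR 2.92e-05 by edgeR). Both groups of libraries stood apart for these genes, and their corrected values were 0.71 and 0.65.

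Klf1 fell from 624 ± 48.5 to 555 ± 9.21 normalized CPM (SD, n = 3 each), a log2 fold change of -0.17 (FDR 0.0150 by edgeR). The fall did not hold in the corrected fit, at 0.0027 (FDR 0.967), with GC content alone (-0.03) or length alone (-0.09) corrected for, with total counts only (-0.12, FDR 0.0503), or without CHD4-APR replicate 2 (-0.15, FDR 0.0789), and without CTRL replicate 1 it was smaller and still called (-0.11, FDR 0.0387). Klf16 had a log2 fold change of -0.12 (FDR 0.132) that passed without CTRL replicate 2 (-0.17, FDR 0.0260) and turned to 0.037 in the corrected fit, and Sp9, with 117 to 168 counts, had one of -0.06 (FDR 0.780 by edgeR). The remaining 11 genes were too low to be tested, and 7 of these, Klf5, Klf8, Klf12, Klf14, Klf15, Sp5 and Sp8, had no counts in any library, while Klf7, Klf17, Sp6 and Sp7 had at most 4 in any library.

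The ratio of Klf3 to Klf1 per kb of exonic length, a repressor and an activator that bind similar CACCC boxes, was 0.0300, 0.0415 and 0.0382 under the CTRL peptide and 0.0523, 0.0587 and 0.0536 under the CHD4-APR peptide. The groups did not overlap (two-sided exact permutation p = 0.1, the smallest possible). This ratio uses uncorrected levels, and the corrected log2 fold changes of the pair, 0.17 for Klf3 and 0.0027 for Klf1, lie closer together than the uncorrected 0.43 and -0.17. Klf1 remained far above the rest, with 77.7% to 81.6% of the summed level per kb of all KLF and SP genes in the CTRL libraries and 72.3% to 73.8% in the CHD4-APR libraries.

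**Figure D3:**
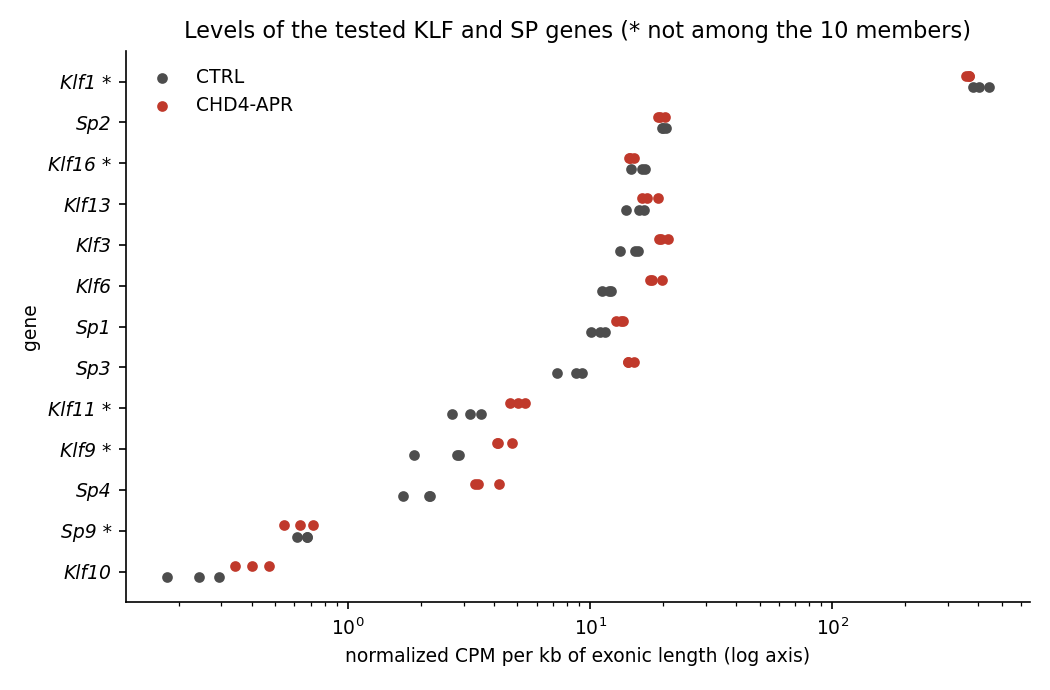
Level of the 13 tested KLF and SP genes in normalized CPM per kb of exonic length on a log axis, ordered by the CTRL mean, with 1 point per library. Klf1 stands above all others in both groups, and Sp3, Klf6 and Klf3 move up toward Sp2 in the CHD4-APR libraries. Levels are without the length and GC correction.

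Compared per kb of exonic length, Sp2 had the highest level of the 8 tested members in the CTRL libraries, 20.1 ± 0.368 normalized CPM per kb (SD, n = 3). Klf13 (15.5 ± 1.30) and Klf3 (14.8 ± 1.33) came next, with ranges over the libraries that overlapped, followed by Klf6 (11.8 ± 0.536) and Sp1 (10.8 ± 0.736), whose ranges also overlapped, although Klf13 was above Klf3 and Klf6 above Sp1 within each CTRL library. The ranges of Sp3 (8.41 ± 1.01), Sp4 (2.01 ± 0.277) and Klf10 (0.239 ± 0.0573) each lay wholly below that of the gene before. With the CHD4-APR peptide the upper part of this order closed up. Klf3 (19.9 ± 0.893 normalized CPM per kb), Sp2 (19.6 ± 0.604), Klf6 (18.5 ± 1.21) and Klf13 (17.5 ± 1.44) had ranges that each overlapped with the next. The range of Sp3 (14.6 ± 0.515) was then wholly above that of Sp1 (13.2 ± 0.460), with Sp4 (3.67 ± 0.476) and Klf10 (0.404 ± 0.0640) still lowest. These levels are uncorrected. The corrected log2 fold changes were 0.17 for Klf3, 0.073 for Sp2, 0.48 for Klf6 and 0.18 for Klf13. With these, Klf3 and Klf6 would rise less against Sp2, so the closing up depends on the uncorrected levels.

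Over all genes tested, the share called higher was 48.3% where the GC content was under 42%, 36.4% from 42% to 46%, 22.2% from 46% to 50%, 9.52% from 50% to 54%, 3.64% from 54% to 58% and 1.89% from 58% up. Sp4 and Sp3 have the lowest GC content of the members, 39.9% and 40.1%, and had large changes, whereas Klf13 and Sp2 have 55.5% and 55.7% and the smallest. Klf6, Sp1 and Klf3, at 42.4%, 43.6% and 45.7%, fall in the second of these ranges, and Klf10, at 46.9%, in the third.

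As a description, Pearson's r between GC content and log2 fold change was -0.83 over the 8 tested members, -0.85 over the 13 tested KLF and SP genes and -0.40 over 12677 tested genes. All of these genes were measured in the same 6 libraries, and genes are not independent replicates. In the corrected fit r was -0.54 over the members and -0.01 over all genes. The corrected fit called 6 members higher and 0 lower, with 11.6% of all genes called higher and 15.9% lower. Correcting for GC content alone left 7 members higher, with 15.5% of all genes higher, and correcting for length alone left 5, with 14.3% of all genes higher and 20.8% lower. The labels give no batch.

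**Figure D4:**
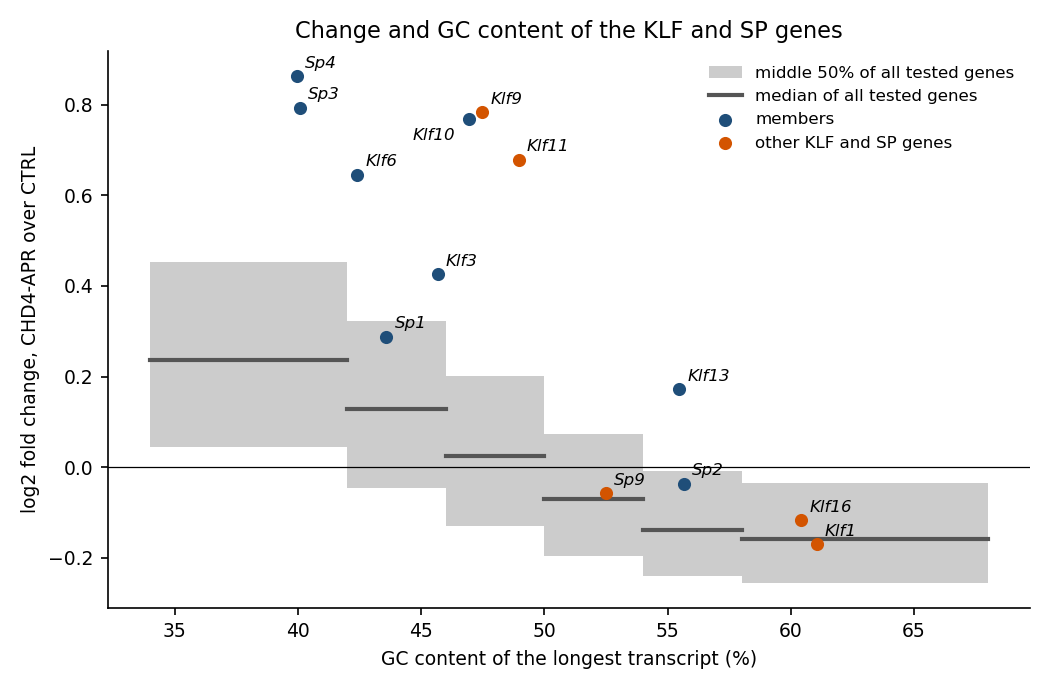
Log2 fold change, CHD4-APR over CTRL, against the GC content of the longest transcript for the 8 tested members (blue) and the 5 other tested KLF and SP genes (orange). Grey boxes are the middle 50% and lines the median of all tested genes in bins of GC content, the outermost drawn only to the edge of the plot. Sp4, Sp3, Klf6, Klf10, Klf9, Klf11, Klf3 and Klf13 lie above the box of their bin, and Sp1, Sp2, Sp9, Klf16 and Klf1 lie inside it.

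The genes that the family works with were followed as lists. Of 11 genes of coactivators of SP1 and KLF factors, 7 rose and 0 fell, beside 20.4% and 17.8% of all genes, with a median log2 fold change of 0.21 against -0.01 over all tested genes. Med14, a Mediator subunit, rose from 16.0 ± 1.29 to 25.1 ± 1.52 normalized CPM (SD, n = 3 each), with a log2 fold change of 0.65 (FDR 8.23e-06 by edgeR). Ep300, the acetyltransferase p300 that acetylates several KLF proteins, had a log2 fold change of 0.50 (FDR 4.74e-06 by edgeR), and Med1 and Kat2b, another Mediator subunit and an acetyltransferase, had 0.30 and 0.26. In the corrected fit 5 of the 11 rose, beside 11.6% of all genes, with a median of 0.11, and Med1 had no call (0.11, FDR 0.0947 by edgeR).

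Of 11 corepressor genes of the CtBP and SIN3 complexes, which KLF3 and KLF10 recruit, 3 rose and 0 fell, with a median log2 fold change of 0.05. Over all genes 20.4% were called higher and 17.8% lower, so the count called higher is near that of all genes. The 3 were Sin3a, the scaffold of the SIN3 complex, at 0.21 (FDR 0.00517 by edgeR), the histone chaperone Rbbp4 at 0.19 (FDR 0.00391), and Ctbp2 at 0.19 (FDR 0.0346). Ctbp1, the other CtBP gene, had no call. In the corrected fit 2 rose and 1 fell, beside 11.6% and 15.9% of all genes, and Rbbp4, at -0.04, was not among them.

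Of 17 upstream regulators of Klf2, Klf4 and Klf10, 13 were tested, of which 9 rose and 0 fell, beside 20.4% and 17.8% of all genes. Tgfbr1, a TGF-beta receptor, had a log2 fold change of 0.69 (FDR 3.01e-05 by edgeR) and rose from 7.07 ± 0.531 to 11.4 ± 0.770 normalized CPM (SD, n = 3 each), while its partner Tgfbr2 had no counts in any library. Map3k2, a kinase above ERK5, Mef2a, a MEF2 factor, and Itch, a ubiquitin ligase, had log2 fold changes of 0.65, 0.43 and 0.39. The median of this list was 0.23, and 0.05 in the corrected fit, where 5 rose beside 11.6% of all genes, Mef2a and Itch were not among them, and the corrected values of Tgfbr1 and Map3k2 were 0.41 and 0.25.

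Known targets of the factors are set beside the 20.4% of all genes called higher and 17.8% called lower, and their counts are small. Of 13 tested erythroid genes activated by KLF1, a list that includes Klf3 itself, 3 rose and 5 fell, with the same counts in the corrected fit, where the shares of all genes are 11.6% and 15.9%. Epb42, the membrane skeleton protein 4.2, had a log2 fold change of 0.34 (FDR 6.46e-04 by edgeR), and the adult beta-globin genes Hbb-bs and Hbb-bt had -0.33 and -0.32 (FDR 1.68e-04 and 9.69e-05), which are near-identical copies whose reads the counting could have split. Of 9 SP1 target genes, 1 rose and 1 fell, the cell cycle inhibitors Cdkn1b (log2 fold change 0.23) and Cdkn1a (-0.21). In the corrected fit 0 of the 9 rose and 3 fell, beside 11.6% and 15.9% of all genes, and Cdkn1b, at 0.07 (FDR 0.169 by edgeR), had no call. Cdkn1a is also on the list of KLF2 targets, of which 5 were tested, with S1pr1, a sphingosine phosphate receptor at 7 to 11 counts in the CTRL libraries, higher at 1.29 and the integrin gene Itgb7 lower at -0.26, a call that ended in the corrected fit (-0.12, FDR 0.158 by edgeR). C1qtnf12, a gene repressed by KLF3 and the only tested one of its list, fell from 74.9 ± 0.582 to 62.8 ± 4.17 normalized CPM (SD, n = 3 each), with a log2 fold change of -0.25 (FDR 0.00124 by edgeR). Its corrected value was -0.07, with no call (FDR 0.286).

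Since several KLF genes are known as early response genes, 10 immediate early genes were followed as well. Of the 8 tested, 5 rose and 0 fell, beside 20.4% and 17.8% of all genes, with a median log2 fold change of 0.55. The corrected fit also called 5 higher and 0 lower, beside 11.6% and 15.9% of all genes, with a median of 0.65. Fosb and Fos had the largest log2 fold changes, 2.84 and 2.16, and Jun and Egr1 had 1.12 and 0.69, while Atf3 was at or near 0 in all libraries. Jun rested on few counts, 8 to 18 with CTRL against 19 to 33 with CHD4-APR (FDR 0.0260 by edgeR). Fos had 38 to 58 against 162 to 234 counts (FDR 8.12e-07), and Fosb 68 to 101 against 421 to 750 (FDR 2.52e-07). Egr1 had 208 to 257 against 333 to 436 (FDR 1.01e-04).

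The libraries had between 41687482 and 49784177 counts. Of the 10 erythroid markers, all were detected, with a summed level of 36200 to 38520 normalized CPM under the CTRL and 32860 to 34520 under the CHD4-APR peptide, carried mostly by the near-identical alpha-globin genes Hba-a1 and Hba-a2. Tfrc and Gata1 rose, and Hba-a1, Hba-a2 and Klf1 fell, beside 20.4% of all genes higher and 17.8% lower. In the corrected fit 2 of the 10 rose, Gata1 among them, and 0 fell, beside 11.6% and 15.9% of all genes, and Tfrc, at -0.02 (FDR 0.762 by edgeR), had no call. Counts of Gata1 can come from the GATA-1 fusion, so they do not mark the cells as erythroid. Markers of mast cells and basophils summed to at most 0.821 normalized CPM in any library, with Mcpt8 at 0, and those of lymphoid cells to at most 0.614, with Cd3e and Cd8a at 0. Among the megakaryocyte markers Gp1bb and Ppbp had no counts, and the sum was 46.7 to 48.8 in the CTRL and 39.9 to 45.7 in the CHD4-APR libraries. The 6 myeloid markers summed to 178 to 206 and 162 to 163, almost all of it Spi1, with Mpo at 0. Gp9 among the megakaryocyte and Spi1 among the myeloid markers had log2 fold changes of -0.31 and -0.24 (FDR 0.00986 and 0.00131 by edgeR), both without a call in the corrected fit. The 3 tested megakaryocyte markers ran from -0.31 to 0.44, with no call for the other 2. The 2 tested myeloid markers had -0.24 and -0.10, the latter without a call. The part of these markers in the changes of the KLF and SP genes was not tested.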

How the data were processed

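Per the labels and the study's methods, poly(A) RNA was prepared with the TruSeq RNA Sample Prep Kit v2, trimmed with Cutadapt, aligned with STAR 2.7.10a to GRCm38 and counted per Ensembl gene with featureCounts. The authors deposited raw counts per gene, without normalization, and how strand and multiply aligned reads were handled is not given in the sources used here. A further 2 columns matched no sample given here and stayed unused. Names, exonic lengths and GC content came from GENCODE M21 (GRCm38), which held 48349 of 48709 identifiers.

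Genes passing filterByExpr were scaled by TMM and compared between the peptides in edgeR 4.0.16 (quasi-likelihood test, no term for the replicate number), and a Benjamini-Hochberg adjusted p under 0.05 was called. Standard errors and 95% intervals were derived from the F statistic. Alternatives used DESeq2 1.42.0, limma 3.58.1, other scalings and filters, a replicate block and leaving out each library. In the length and GC correction, each library's deviation from the mean log2 CPM (prior count 2) was smoothed with mgcv 1.9.3 and passed as offsets, so it can also remove changes that follow these properties. Correction for GC or length alone was added after the data were seen. The edgeR, DESeq2 and limma-voom fits were tested on simulated data with changed genes. The correction was tested only on simulated counts with a GC trend, no length trend and no changed genes. Its removal of a length trend and its effect on real changes were therefore not tested. The members and lists were chosen with earlier results of these data known. The text names all KLF and SP genes and, from each other list, up to 4 called genes with the largest change, and Ctbp1, Tgfbr2, Atf3 and markers without counts were named after their values were seen.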

Additional observations from a re-analysis of the deposited data

How the results depend on the processing

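The 7 members called higher became 5 to 7 under the other settings and 5 to 7 with each library left out, and 0 were called lower under any of them. Sp3, Sp4, Klf6 and Klf3 kept their direction and their call in all 19 alternatives run on each, with log2 fold changes from 0.54 to 0.86, 0.59 to 0.93, 0.45 to 0.69 and 0.17 to 0.47. Klf10 lost its call in 2, Sp1 in 3 and Klf13 in 5, always with the same direction. The sign of Sp2 turned with total counts only (0.0083), with the length and GC correction (0.073), with that correction and a replicate block (0.073) and with GC content alone corrected for (0.075). Klf1 turned to 0.0027 with the length and GC correction and 0.0031 with the replicate block added, Klf16 to 0.037 in both and to 0.024 with GC content alone, and Sp9 to 0.0074 with GC content alone and to between -0.15 and 0.041 with each library left out, above 0 only without CHD4-APR replicate 2. The cause of these changes was not tested. The number of all genes called was 4871, 3250 to 5214 under other settings and 3703 to 4928 with each library left out. With the length and GC correction 1482 were higher and 2028 lower, against 2601 and 2270, and the split was 1677 and 2332 with the replicate block added, 2419 and 2601 with upper quartile scaling and 2959 and 1474 with total counts only. Over all tested genes, deviations of libraries with the same replicate number correlated at -0.035 to 0.0697, so the numbers were not taken as pairs. For Klf3, Klf13, Sp1 and Sp4, however, the replicate numbers ran in the same order of level in both groups. A replicate block gave 5214 genes called and 7 members called higher, with an FDR of 0.0028 for Klf13 by edgeR. Among the tested members, Klf10 had the fewest counts, 37 to 84 a library.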
